A study of Mus musculus with 5 samples.

Results

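The regions described here are 5480 peaks of open chromatin in hindlimb skeletal muscle of wild-type (WT) mouse fetuses at E18.5. Each of them overlapped, by at least 1 base, a peak called in WT muscle at P5 and a peak called in WT adult muscle, and overlapped no peak of WT E14.5 muscle and no peak of Cacna1s knockout (KO) muscle at E18.5. They were 5480 of the 91265 peaks of the WT E18.5 library. Another 5687 peaks had the same pattern in the WT libraries and did overlap a KO peak, so that 49.1% of the 11167 peaks with this maturation pattern had no KO peak. The 5687 are called kept peaks below, and the 5480 missing peaks or members. The members were chosen by the presence or absence of called peaks in the 5 libraries, so the counts of calls are descriptions and no test was made on them.

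RNA and open chromatin (ATAC) were read in the same nuclei, in 1 library for each of 5 groups of C57bl6n mice. The groups were Cacna1s-/- fetuses at E18.5 and WT muscle from adults, from pups at P5 and from fetuses at E18.5 and E14.5. Each library pooled several hindlimbs: 26 for the KO and, for the WT, 4 in adult, 8 at P5, 14 at E18.5 and 56 at E14.5. The KO allele carries an inserted cassette that removes coding sequence of Cacna1s, in all cells of the animal. Nuclei had been sorted on the myonuclear marker PCM1 and the PCM1-positive and PCM1-negative fractions mixed again, so the makeup of a library was partly set by that mixing. With 1 pool a group, no difference between groups has a replicate check and no p-value is given. Doublets were not removed, and 86 to 146 barcodes of each library also occurred in another library.

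Cacna1s encodes the pore-forming subunit of Cav1.1, the voltage sensor in the transverse tubules of skeletal muscle that opens the ryanodine receptor and so couples excitation to contraction. Around birth, muscle fibers replace developmental isoforms of contractile proteins by adult ones and change their metabolism. Open chromatin marks promoters and enhancers where transcription factors can bind, and a peak that appears in fetal muscle and persists into the adult is a candidate element of that later program.

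Of the 5480 missing peaks, 145 covered at least 50% of a RefSeq promoter, taken as the 250 bases before to the 50 bases after a transcription start (158 promoter windows of 147 gene symbols, GRCm38.p6). The promoters of Xirp2, Myh1, Ppp1r27, Rpl3l, Pfkm and Ddo are printed because they lay wholly inside a missing peak, because that peak was more open in Ttn-high nuclei (defined below) and because the RNA of the gene is followed in the results. They were chosen after the values were seen. Capitals mark the E-box CANNTG, the site of basic helix-loop-helix factors such as MyoD and myogenin, and the MEF2 motif in its strict form, with C first and G last, the site of the MEF2 factors of muscle.
Xirp2, chr2:67445752-67446051, plus strand: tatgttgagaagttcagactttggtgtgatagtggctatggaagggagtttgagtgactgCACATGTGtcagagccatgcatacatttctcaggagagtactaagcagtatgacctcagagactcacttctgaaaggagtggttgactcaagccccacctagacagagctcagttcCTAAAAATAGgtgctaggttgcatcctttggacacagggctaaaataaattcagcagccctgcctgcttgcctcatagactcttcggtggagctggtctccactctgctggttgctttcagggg
Myh1, chr11:67199852-67200151, plus strand: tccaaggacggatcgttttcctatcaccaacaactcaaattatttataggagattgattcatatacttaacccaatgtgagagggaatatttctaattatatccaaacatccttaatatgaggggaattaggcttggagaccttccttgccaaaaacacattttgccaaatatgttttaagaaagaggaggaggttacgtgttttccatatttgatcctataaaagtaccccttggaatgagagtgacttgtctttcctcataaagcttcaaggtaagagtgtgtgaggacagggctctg
Ppp1r27, chr11:120551083-120551382, minus strand: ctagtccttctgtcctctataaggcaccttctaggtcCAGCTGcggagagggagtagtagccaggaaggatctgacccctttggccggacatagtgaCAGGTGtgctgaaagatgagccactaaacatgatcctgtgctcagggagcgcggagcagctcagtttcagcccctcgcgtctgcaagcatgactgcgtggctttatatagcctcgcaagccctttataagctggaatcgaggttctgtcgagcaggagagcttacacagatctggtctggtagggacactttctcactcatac
Rpl3l, chr17:24732435-24732734, plus strand: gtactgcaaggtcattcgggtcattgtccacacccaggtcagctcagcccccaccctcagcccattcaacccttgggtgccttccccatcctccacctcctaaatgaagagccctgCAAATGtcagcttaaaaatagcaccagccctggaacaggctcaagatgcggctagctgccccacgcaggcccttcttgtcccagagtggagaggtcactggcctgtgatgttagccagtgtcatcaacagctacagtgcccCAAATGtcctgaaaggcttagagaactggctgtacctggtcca
Pfkm, chr15:98111810-98112109, plus strand: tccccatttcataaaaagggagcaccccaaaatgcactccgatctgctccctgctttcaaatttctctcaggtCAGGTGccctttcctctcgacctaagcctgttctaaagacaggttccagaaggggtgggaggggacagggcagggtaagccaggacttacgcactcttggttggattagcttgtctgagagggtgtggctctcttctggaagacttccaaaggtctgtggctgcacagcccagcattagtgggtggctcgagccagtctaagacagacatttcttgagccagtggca
Ddo, chr10:40629761-40630060, plus strand: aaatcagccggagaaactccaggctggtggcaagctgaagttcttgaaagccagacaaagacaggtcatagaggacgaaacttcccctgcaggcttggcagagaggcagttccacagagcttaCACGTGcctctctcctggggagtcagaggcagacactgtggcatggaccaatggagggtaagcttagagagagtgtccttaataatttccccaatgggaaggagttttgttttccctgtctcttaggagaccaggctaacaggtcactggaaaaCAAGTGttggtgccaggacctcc
The Xirp2 promoter held overlapping E-boxes on its first marked stretch and a MEF2 motif on the second. The Myh1 promoter held neither of the marked motifs, and the other 4 held marked E-boxes and no strict MEF2 motif. A wider MEF2 motif, with C or T first and A or G last, also occurred in the Myh1 and Rpl3l promoters, where it is not marked. Such a match is a description of the letters and not evidence of binding.

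At the median the missing peaks were weaker than the kept peaks, and the KO library was shallower than the WT library of the same age. All deposited barcodes of the KO held 23714252 ATAC counts in peaks, 53.5% of the 44317624 of WT E18.5. After the limits on nuclei given under the processing, the KO held 38.2% of the WT ATAC counts, and 61874 peaks had been called in it against 91265. The median missing peak held 194 counts in WT E18.5 (lower and upper quartiles 144 and 269), the median kept peak 274 (198 and 391) and the median of all E18.5 peaks 240. The ATAC level of a peak, here its counts per kb of peak scaled to 1000000 counts in all peaks, had medians of 5.07 for missing peaks, 7.16 for kept peaks and 6.28 for all peaks. The widths were alike, with medians of 876, 882 and 880 bases. When all 91265 peaks were split by level into 10 deciles, members made up 75.6% of the maturation peaks in decile 1 (the lowest), 50.9% in decile 5 and 26.4% in decile 8. The shares of all E18.5 peaks without a KO peak in the same deciles were 85.2%, 44.9% and 14.0%, so in decile 1 the maturation peaks had the lower share. In decile 10, 15 of 61 maturation peaks had no KO peak (24.6%), against 0.756% of all E18.5 peaks of that decile.

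With the WT counts scaled to the KO total (a factor of 0.535), 65.5% of the missing peaks came to fewer than 125 counts, the lower quartile of counts over the peaks called in the KO. The same held for 37.2% of the kept peaks and 48.7% of all E18.5 peaks. With a factor of 0.613, from the peaks shared by both libraries, 53.6% of the missing peaks were below that count. By definition about 25% of the peaks called in the KO lie below it, so it is not a limit of calling. A lower mark was 75 counts, the 5th percentile over the peaks called in the KO. With the factor of 0.535, 22.8% of missing, 7.91% of kept and 21.9% of all E18.5 peaks were below 75. With 0.613 these shares were 14.4%, 4.17% and 15.3%. KO counts exist only for peaks called in the KO, so no missing peak has a measured KO level, and a missing call does not show closed chromatin. Depth and genotype are joined in 1 KO library and cannot be told apart for any single peak.

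Over all deposited barcodes the P5 library held 27092329 ATAC counts in 67013 called peaks. Peaks were called on whole libraries, but the nuclei kept here differed more in depth, with 23438339 counts at P5 and 13899642 in the KO, or medians of 3952 and 2530 a nucleus. Among all 91265 E18.5 peaks, 36.7% had no P5 peak and 40.4% no KO peak. Among the 16118 E18.5 peaks that were found in adult and not at E14.5, 30.7% had no P5 peak and 56.6% had no KO peak. In decile 1 by level these shares were 57.3% and 82.0%, in decile 5 27.5% and 55.7%, and in decile 8 11.96% and 30.2%. The share without a KO peak was the higher one in all 10 deciles. P5 and KO differ in age as well as genotype, and the part of depth in this difference was not tested further. Peaks present in all 4 WT libraries lacked a KO peak in 8.47% of 34532 cases, and those found at E14.5 and lost after birth in 47.1% of 8823. The E14.5 library was also shallower than WT E18.5, with 23592784 ATAC counts in 65624 called peaks over all deposited barcodes. A missing E14.5 call thus does not show closed chromatin either, and the part of depth in it was not tested.

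**Figure D1:**
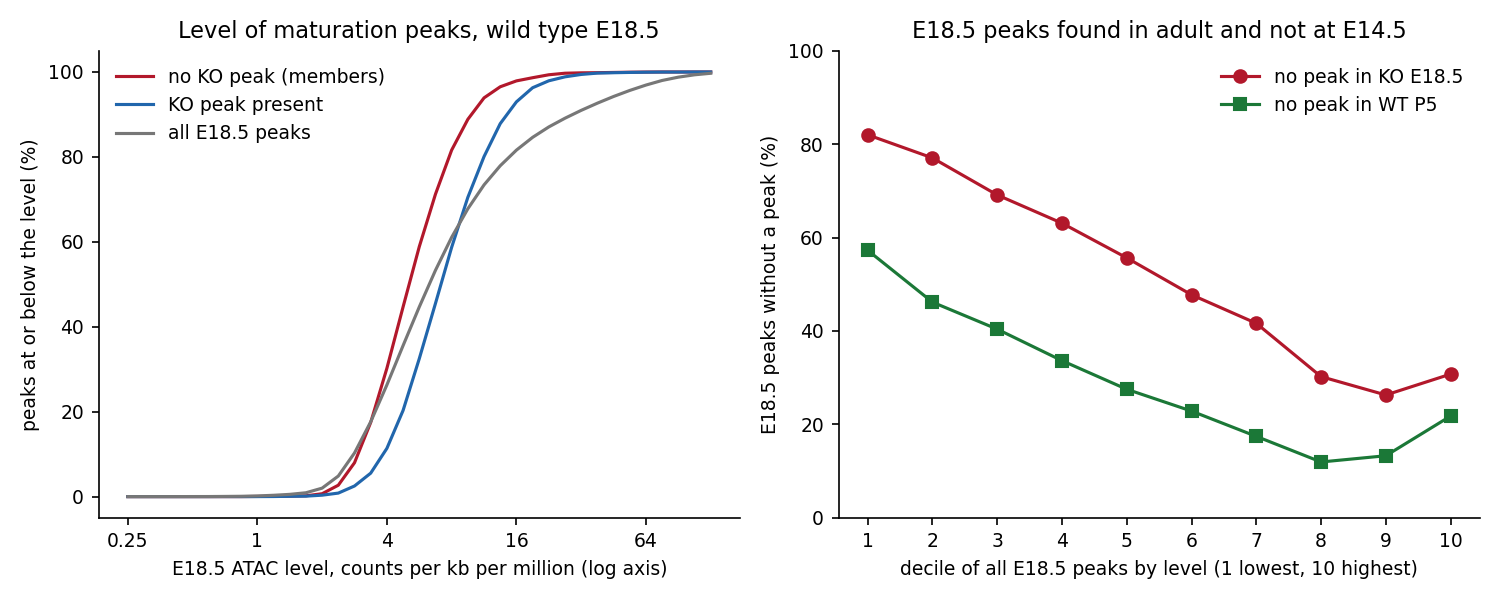
Left, cumulative distribution of the ATAC level in WT E18.5 (counts per kb of peak, scaled to 1000000 counts, log axis) for missing peaks, kept peaks and all peaks of the library; the curve of the missing peaks lies left of the kept peaks, with medians of 5.07 and 7.16. Right, share of the E18.5 peaks found in adult and not at E14.5 that had no peak in the KO (circles) or at P5 (squares), by decile of level (1 lowest, 10 highest); the KO line is above the P5 line in all 10 deciles.

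The threshold of the rule, a single shared base, had few peaks close to it. The closest missing peak abutted a KO peak with a gap of 0 bases, 58 members lay within 100 bases of one and 317 (5.78%) within 500, while the median gap was 7477 bases. On the other side, the kept peak with the smallest overlap shared 3 bases with a KO peak, 21 kept peaks shared fewer than 100, and the median overlap was 839 bases.

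More of the missing peaks were at least 2-fold lower in fiber nuclei than in the other nuclei (1903) than were at least 2-fold higher there (1093). Nuclei were split by Ttn, the giant spring protein of the sarcomere: those with at least 1% of their RNA in Ttn are called Ttn-high. In WT E18.5, 1579 of 4261 nuclei were Ttn-high, and in the KO 987 of 3228. All 12 markers of myonuclei were higher in Ttn-high than in other nuclei of every library, and summed to 36628 CPM in WT E18.5 and 34611 in the KO, where CPM are UMIs of a gene scaled to 1000000 UMIs over the nuclei summed. At equal totals of ATAC counts, 1093 members (19.9%) were at least 2-fold higher in Ttn-high than in other nuclei, against 18.2% of all E18.5 peaks and 28.1% of kept peaks. At least 2-fold lower in Ttn-high nuclei were 1903 members (34.7%), against 23.6% of all E18.5 peaks and 28.0% of kept peaks. The median log2 ratio of Ttn-high over other nuclei was -0.39 for members, -0.08 for kept peaks and -0.12 for all peaks. Read the other way, 40.6% of the 2691 maturation peaks that were higher in Ttn-high nuclei had no KO peak, and 54.5% of the 3493 that were lower there. The name maturation peak therefore refers only to the libraries in which these peaks were called, while 19.9% of them were more open in fiber nuclei by this rule.

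Among fixed markers of other cell types, the mesenchymal genes Col1a1, Col3a1, Col6a3, Dcn, Dpt and Pdgfra (6 of 10) were each the nearest gene of a member that was at least 2-fold lower in Ttn-high nuclei. Those genes encode collagens, matrix proteins and a growth factor receptor of fibroblastic cells. Endothelial markers and smooth muscle and pericyte markers each had 1 such gene of 8. The progenitor, tenocyte, macrophage, Schwann, adipocyte and erythroid markers had 0. As a background, 1541 of the 4164 nearest genes of members were nearest to a member lower in Ttn-high nuclei. Kept peaks were not counted for these marker sets. Of the 12 myonuclear markers, 4 (Mybpc1, Myh3, Neb and Xirp2) were nearest to a member. Of those, 3 had a member at least 2-fold higher in Ttn-high nuclei and 1 had a member at least 2-fold lower. Mesenchymal marker RNA inside the Ttn-high nuclei summed to 1368 CPM in WT E18.5 and 642 in the KO, and tenocyte marker RNA to 395 and 98.5, none of them at 0. Satellite cell and progenitor markers went the other way, with 268 in WT and 421 in the KO. The part of this other RNA in the differences reported below was not tested. In these summed nuclei, fewer nuclei of a type and less RNA per nucleus cannot be told apart.

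After birth, more of the missing peaks than of all peaks were at a higher level in Ttn-high nuclei. Where a member had exactly 1 partner peak, its level at P5 was at least 2-fold above that of E18.5 in 1471 of 5296 cases (27.8%), with 8.71% of all E18.5 peaks as the background and 19.5% of kept peaks. The median log2 ratio of P5 over E18.5 was 0.62 for members, 0.46 for kept peaks and 0.16 for all. In adult, 1135 of 5298 members (21.4%) were at least 2-fold above E18.5, against 7.69% of all peaks and 17.0% of kept peaks. At least 2-fold below were 911 (17.2%), against 21.6% of all peaks and 22.6% of kept peaks. Members that were higher in Ttn-high nuclei at E18.5 had a median log2 ratio of 0.76 at P5 and 0.72 in adult over E18.5, where kept peaks of the same kind had 0.48 and 0.35. Presence at P5 and in adult was part of the rule, so these ratios describe the members and support no separate claim.

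The 15 members with the highest level in Ttn-high nuclei, among those at least 2-fold higher there, had levels of 24.99 to 38.2 and were 2.37- to 9.51-fold above the other nuclei. Pdk2, Gapdh, Pgam2 and Slc16a3, among their nearest genes, serve energy use. The member 539 bases from the start interval of Pdk2, a kinase that restrains pyruvate dehydrogenase, had a level of 36.4 (95% Poisson interval 32.8 to 40.3, from 368 counts) in E18.5 Ttn-high nuclei and 11.8 in the other nuclei. Its level in Ttn-high nuclei was 56.3 at P5 and 68.5 in adult. The member near Gapdh, the glycolytic dehydrogenase, had an E18.5 level of 32.6, with 61.3 at P5 and 86.7 in adult. An intronic member 1112 bases from Pgam2, the muscle phosphoglycerate mutase, had 29.1, 55.0 and 75.5 in the same order, and was 8.45-fold (95% interval 6.47 to 11.2) higher in Ttn-high than in other nuclei at E18.5. The member near Slc16a3, a lactate transporter, went from 29.7 to 50.3 and 88.3.

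Regulatory and structural genes were in the same group. A member in an intron of Nfic, a nuclear factor I protein, at chr10:81421592-81422469 of mm10 had an E18.5 level of 28.2, with 44.4 at P5 and 61.2 in adult. The member near Ankrd23, an ankyrin-repeat protein of the sarcomere, had 29.9, 66.0 and 56.2. The member 12374 bases from Des, the intermediate filament of muscle, was lower after birth, with 29.8, 25.4 and 19.0. The member with the largest difference between nuclei among these 15, nearest to Prrg2, had 34.9 in Ttn-high and 3.67 in other nuclei (9.51-fold, interval 7.41 to 12.4). Of these 15 members, 9 lay less than 1 kb from a peak that was called in the KO, against 595 of all members (10.9%). The intervals cover counting error only.

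**Figure D2:**
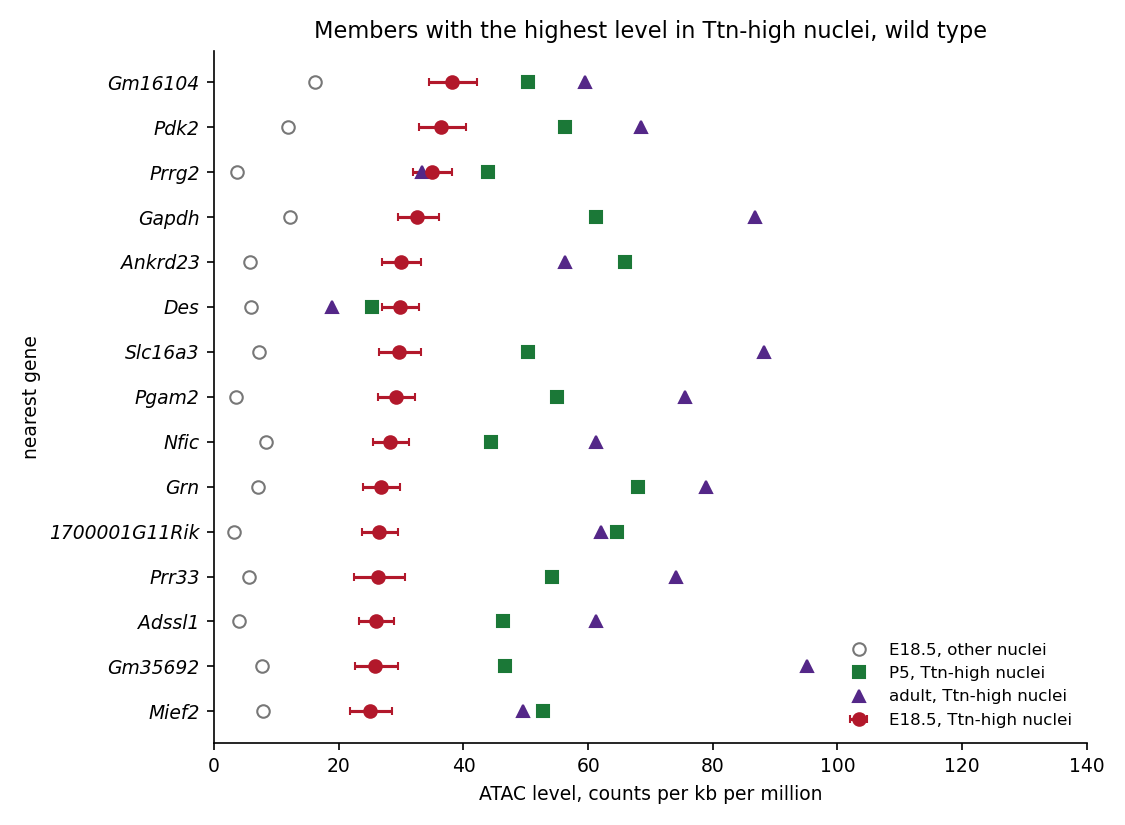
ATAC level (counts per kb of peak, scaled to 1000000 counts) of the 15 members with the highest level in Ttn-high nuclei of WT E18.5 (filled circles, bars are 95% Poisson intervals), with the other nuclei of E18.5 (open circles) and the Ttn-high nuclei of P5 (squares) and adult (triangles), labelled by nearest gene. The Ttn-high levels of E18.5 run from 24.99 to 38.2, and the member near Des is lower at P5 and in adult than at E18.5.

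Most members were distal. Within 1 kb of an annotated transcription start lay 444 (8.10%), in exons 232 (4.23%), in introns 2719 (49.6%) and between genes 2085 (38.0%). The share near starts was 10.9% for kept peaks and 21.8% for all E18.5 peaks. Each member was assigned the gene whose interval of transcription starts, as listed with the counts, was closest. The median distance was 18170.5 bases (16386 for kept peaks and 12969 for all), and 77.1% lay within 50 kb. These intervals can be long: 730 members (13.3%) fell inside one.

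The 4164 nearest genes held 1 member in 3214 cases, 2 or 3 members in 868 and at least 4 in 82. Kept peaks had 4237 nearest genes, and 1447 genes were on both lists (34.8% of the first and 34.2% of the second). Fgfr2, a fibroblast growth factor receptor, had the most members (16), but its start interval spans 2857 kb, all 16 lie inside it and so do the starts of 47 other genes. Rora, a nuclear receptor of the circadian clock, had 8 members, all inside its own interval of 636 kb with no other gene starting there. Its RNA in Ttn-high nuclei was 690 CPM in WT E18.5 and 834 in the KO, 3654 at P5 and 3944 in adult. Tns1, an actin linker of focal adhesions, had 6 members and 7 kept peaks, and its RNA was 205 CPM in both E18.5 libraries. Kalrn, a guanine nucleotide exchange factor, had 6 members and no kept peak, and 98.9 in WT against 94.3 in the KO. Of the 12 genes with the most members, 10 were within 2-fold between KO and WT, 1 (9430078K24Rik) was 2.63-fold higher (13 UMIs in WT and 30 in the KO), and 1 (Gm12728) had no UMI in any library.

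The nearest genes as a whole had shares of lower and higher RNA in the KO within a few percentage points of those of all genes. RNA was summed over Ttn-high nuclei as CPM, a gene was measured where at least 1 of both sums reached 20 UMIs, and a 2-fold ratio was the rule of size. Of 2484 measured nearest genes, 190 (7.65%) were at least 2-fold lower in KO than in WT E18.5 and 168 (6.76%) at least 2-fold higher. Over all 14589 measured genes the shares were 5.52% lower and 6.2% higher. The nearest genes of kept peaks had 6.73% lower and 7.63% higher, and the median log2 ratios were -0.02 for members, 0.01 for kept peaks and -0.03 for all genes. Genes nearest to members that were higher in Ttn-high nuclei were lower in 55 of 674 cases (8.16%) and higher in 35 (5.19%). Among genes with RNA at least as high in Ttn-high as in other nuclei, 93 of 957 nearest genes of members (9.72%) were lower in the KO, against 8.28% of all such genes.

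Across WT stages, 326 of 2499 measured nearest genes (13.05%) were at least 2-fold higher at P5 than at E18.5 and 372 (14.9%) at least 2-fold lower, with backgrounds of 7.68% and 21.4%. In adult over E18.5 the shares were 14.3% higher and 45.7% lower, with backgrounds of 10.2% and 46.8%. The median log2 ratio of all genes was -0.37 at P5 and -0.88 in adult under this scaling and -0.03 in each with TMM factors. With TMM factors, 19.1% of the nearest genes were higher and 8.92% lower at P5, with backgrounds of 11.9% and 12.9%. In adult these shares were 29.0% and 33.1%, with backgrounds of 22.4% and 31.4%. The median of the nearest genes was -0.13 at P5 and -0.76 in adult, and 0.21 and 0.09 with TMM factors, above the median of all genes under both scalings. The nearest genes of kept peaks were close to these values. At P5 12.4% of them were higher and 16.4% lower, and in adult 15.5% and 46.5%. Their medians were -0.15 at P5 and -0.85 in adult, and 0.19 and -0.004 with TMM factors. The shift against all genes was thus not particular to missing peaks. Peaks at P5 and in adult were part of the rule for both classes.

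Genes at whose start sites a peak was missing were lower in the KO in a larger share of cases than genes at other peaks. Of 426 genes with an annotated start within 1 kb of a member, 271 were measured, and 34 of them (12.5%) were at least 2-fold lower in the KO and 15 (5.54%) at least 2-fold higher. For genes with a start near a kept peak the shares were 8.42% and 9.16% of 404, and for genes with a start near any E18.5 peak 5.12% and 5.19% of 11864. The median log2 ratio was -0.14, -0.06 and -0.04 in that order. This group was formed after the values were seen and carries no test. Among the lower genes, in 17 of the 34 the RNA was at least as high in Ttn-high as in other nuclei of WT E18.5, and in the other 17 it was higher in the other nuclei. Over all 271 measured genes of this group, it was at least as high in Ttn-high nuclei in 117. Under the same RNA condition, genes at kept peaks were lower in the KO in 22 of 191 cases (11.5%). Genes with a start near any E18.5 peak were lower in 7.53% of 4196, and the 17 of 117 here are 14.53%.

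The fiber genes of this group included Xirp2, an actin-binding protein of striated muscle, with 259 CPM in WT E18.5, 4.38 in the other nuclei and 32.4 in the KO. Its RNA had been 1.18 at E14.5 and was 1214 at P5 and 1072 in adult, so that the KO level lay between those of E14.5 and E18.5. The missing peak at its promoter had an ATAC level of 8.20 in Ttn-high and 0.827 in other nuclei. Plcd4, a phospholipase C, had 35.9 CPM in WT and 4.77 in the KO. Eef1a2, the elongation factor isoform of muscle and neurons, had 124 UMIs in WT and 4 in the KO, with 0 UMIs at E14.5 and 44.5 CPM at P5. Ppp1r27, a regulatory subunit of protein phosphatase 1, had 15.5 CPM in WT and 1.71 in the KO, and Myl3, the slow myosin light chain, 13.02 and 1.98. The member at Myl3 was less open in Ttn-high than in other nuclei of WT E18.5 (ratio 0.720, interval 0.560 to 0.919).

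Rpl3l, the ribosomal protein made in striated muscle in place of Rpl3, had 10.7 CPM in WT, 3.60 in the KO, 129 at P5 and 266 in adult. Myh1, the fast myosin heavy chain 2X, had 29.9 in WT E18.5 and 14.6 in the KO, with 624 at P5 and 821 in adult. Reads of the closely similar myosin genes on its chromosome may be shared among them. Ddo, D-aspartate oxidase, had 14.9 and 7.20. At E14.5 these 8 genes had 0 to 10.9 CPM, below WT E18.5 in each case. The other 17 lower genes included the integrin-like Itgbl1 (59.4 CPM in WT and 7.11 in the KO, with 203 in the other WT nuclei), the matrix protein Thbs3 (26.3 and 5.49, with 128), the microfibril protein Mfap5 (20.8 and 4.86, with 96.0) and the cartilage collagen Col2a1 (9.47 and 0.720, with 37.9). The levels of these genes moved with the mesenchymal and tenocyte markers given above, whose part was not tested.

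Of the 15 higher genes, 4 had RNA at least as high in Ttn-high as in other nuclei of WT E18.5 (9330111N05Rik, 9430078K24Rik, Hsd11b1 and Kcnq1), beside the 117 of 271 in the whole group. Hsd11b1, which regenerates active glucocorticoid, had 5.37 CPM in WT E18.5 and 18.55 in the KO, and Kcnq1, a potassium channel, 30.5 and 62.1. Runx1, a transcription factor induced in denervated muscle, had 61.1 and 144, and Cdkn1c, a cell cycle inhibitor, 71.1 and 158, with 69.5 and 206 in the other WT nuclei. Cpne4, a calcium-dependent membrane-binding protein, had 1.10 and 8.64.

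**Figure D3:**
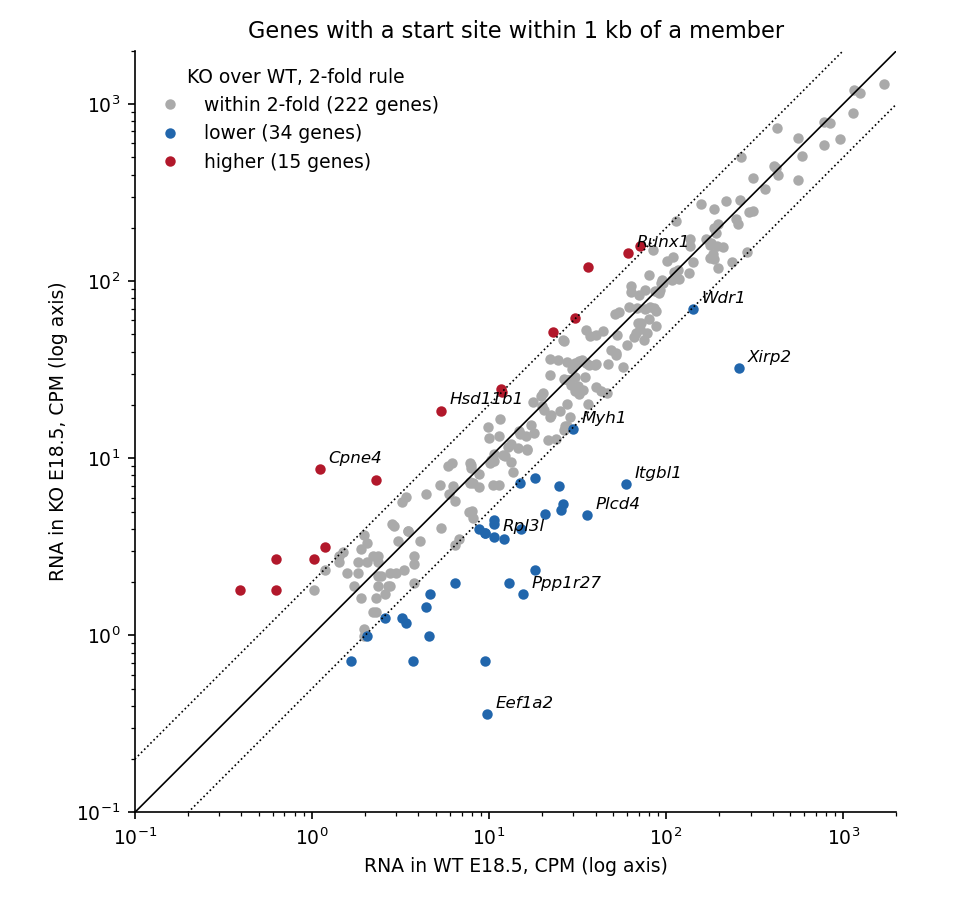
RNA in Ttn-high nuclei of WT E18.5 (x) and KO E18.5 (y), in CPM on log axes, for the 271 measured genes with a start site within 1 kb of a member. Dotted lines mark 2-fold; 34 genes lie below them, 15 above and 222 between.

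The extremes among all nearest genes began with the deleted gene itself. Cacna1s had 2390 UMIs in Ttn-high nuclei of WT E18.5 (189 CPM, 95% Poisson interval 181 to 196) and 8 in the KO (0.720, interval 0.311 to 1.42). Both of its members lie in introns of the gene (chr1:136052750-136119822 of GRCm38), at chr1:136067584-136068302 and chr1:136075834-136076712. The first was 15.5-fold higher in Ttn-high than in other nuclei of WT E18.5. The KO library had 3 peaks in the gene, with 772 counts, where WT E18.5 had 6 with 2508. The extent of the deletion is not given in the sources used here, so for those 2 members lost DNA and lost accessibility cannot be told apart.

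Pvalb, the calcium buffer of fast fibers, followed with 104 UMIs in WT (8.21 CPM) and 2 in the KO, 45.6-fold lower with an interval of 12.3 to 381. It had no UMI at E14.5, 202 CPM at P5 and 704 in adult. Its member, in an intron 8452 bases from the start interval, had an ATAC level of 9.72 in E18.5 Ttn-high nuclei, 41.3 at P5 and 62.1 in adult. Sec14l5, of the Sec14 lipid-transfer family, had 45.3 CPM in WT and 3.42 in the KO (13.2-fold lower, interval 9.53 to 18.9) and 123 at P5. Ankrd2, a stretch-responsive ankyrin-repeat protein, had 12.3 and 1.35 (9.12-fold lower, interval 5.36 to 16.7). Its 2 members, 18565 and 13704 bases from its start interval, were less open in Ttn-high than in other nuclei of WT E18.5. Their ratios were 0.640 (interval 0.525 to 0.777) and 0.646 (0.500 to 0.830). The first of these members lay within 1 kb of an annotated transcription start outside the Ankrd2 start interval. The other genes among the 10 lowest were Eef1a2 and Ppp1r27 of the paragraphs above, Gm13601, Galnt9, Col2a1 and Pkp1, with log2 ratios between -5.14 and -3.18.

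Among the 10 highest, 4732465J04Rik had 51 UMIs in WT and 874 in the KO (19.6-fold higher, interval 14.7 to 26.5). The values were 192 and 1475 for 4921539H07Rik (8.76-fold, 7.54 to 10.2) and 477 and 2289 for Gm13481 (5.48-fold, 4.96 to 6.06). The member near 4732465J04Rik, 13897 bases away, was 7.497-fold higher in Ttn-high than in other nuclei of WT. The member nearest to 4921539H07Rik was lower there, with an ATAC level of 3.13 against 7.29. Chst8, a sulfotransferase of sugar chains, had 4.81 CPM in WT and 28.3 in the KO. The rest of the 10 (Myt1l, Tc2n, Gm47719, Gm10076, Iigp1 and D5Ertd615e) rested on 3 to 41 UMIs in WT E18.5. The absence of a peak in the KO thus stood beside higher as well as lower RNA.

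Genes of muscle contraction were compared by lists. Of all genes in the files, 12.9% were nearest to a member and 13.1% to a kept peak, and the shares of all measured genes at least 2-fold lower and higher in the KO were the 5.52% and 6.2% given above. Of 18 fast sarcomere genes, 5 were nearest to a member (Myh1, Mylk2, Myom2, Myot and Neb) and 8 to a kept peak, and over the list 7 were at least 2-fold lower in the KO and 0 higher, with a median log2 ratio of -0.69 against -0.03 for all genes. Mylk2, the skeletal myosin light chain kinase, had 56.3 CPM in WT and 14.1 in the KO (3.99-fold lower, interval 3.35 to 4.77), after 1.38 at E14.5. Myot, a protein of the Z-disc, had 534 and 255 (2.09-fold lower, 2.00 to 2.18). Its member, in an intron, had an ATAC level of 8.43 in Ttn-high and 0.366 in other nuclei of E18.5, and 32.8 in adult Ttn-high nuclei. Neb, the thin-filament ruler, and Myom2, of the M-band, were within 2-fold, with log2 ratios of -0.41 and -0.07. Of 15 slow and developmental sarcomere genes, 6 had a member, 4 a kept peak, and 4 were lower in the KO and none higher. Myl3 was among both. Myh3, the embryonic myosin (992 and 899), and Tnni1 (256 and 189) were within 2-fold. Of the 5 mature fast genes that the study follows, which it took from its Maf binding data, none was nearest to a member and 2 were nearest to a kept peak, and 2 of the 5 were at least 2-fold lower in the KO.

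Of 26 genes of excitation-contraction coupling and calcium handling, 6 had a member (Asph, Cacna1s, Mrln, Pvalb, Sln and Srl), 8 a kept peak, 3 were lower in the KO and none higher. Beyond Cacna1s and Pvalb, the members' genes were within 2-fold: Srl, sarcalumenin, had 603 CPM in WT and 406 in the KO, and Sln, the inhibitor of the calcium pump, 112 and 163. Of 23 genes of glycolysis, glycogen and phosphagen, 4 had a member (Gapdh, Pfkfb3, Pfkm and Pgam2) and 8 a kept peak, and 1 of the 23 was lower and none higher. Pfkm, the muscle phosphofructokinase with a missing peak at a promoter, had 139 CPM in WT and 85.7 in the KO (1.62-fold lower, interval 1.498 to 1.76). For Gapdh (92.96 and 89.3) and Pgam2 (44.1 in each), whose members were among the 15 above, the interval of the ratio spanned 1 (0.882 to 1.046 and 0.884 to 1.13).

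Genes of fatty acid use and of the response to lost nerve input had higher RNA in the KO where they passed the rule of size. Of 25 genes of fatty acid oxidation and mitochondrial regulation, 8 had a member, 11 a kept peak, 4 were at least 2-fold higher in the KO and none lower. Cd36, the fatty acid transporter, had 240 CPM in WT and 831 in the KO (3.46-fold, interval 3.32 to 3.60), and Lpl, lipoprotein lipase, 55.5 and 136 (2.46-fold, 2.25 to 2.69). In Ttn-high nuclei adipocyte markers summed to 35.0 CPM in WT and 74.6 in the KO and endothelial markers to 66.8 and 116, and the part of these in the higher levels was not tested. Of 18 genes of denervation and atrophy, 6 had a member (Foxo3, Hdac4, Mstn, Musk, Runx1 and Sln), 8 a kept peak, 5 were higher and none lower. The study had already reported Musk, Foxo3, Hdac4, Foxo1, Trim63 and acetylcholine receptor genes of this list as higher in KO myonuclei. The count over the list is thus not independent of these samples. Musk, the receptor kinase of the neuromuscular junction, had 138 CPM in WT and 316 in the KO (2.30-fold, 2.17 to 2.44), and Foxo3, a transcription factor of the atrophy program, 75.5 and 155 (2.05-fold, 1.90 to 2.22). Hdac4, a histone deacetylase, had 4 members, of which 3 were at least 2-fold higher in Ttn-high nuclei, and 157 against 273 (1.74-fold). The member near Cd36 had ATAC levels of 1.75 in Ttn-high and 5.87 in other nuclei. Of both members near Musk, the one closer to its start had 1.36 and 6.02, and the other, at chr4:58253035-58254004, had 3.20 and 4.01, a ratio of 0.796 whose interval (0.543 to 1.15) spanned 1. All 6 denervation genes with a member were also nearest to a kept peak.

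Among regulators, 4 of 13 stage factors of the study, also chosen on these samples, had a member (Esr1, Nfia, Nfib and Nfic) and 7 a kept peak, with 2 of the 13 lower in the KO and none higher. Nfic had 56.0 CPM in WT and 28.0 in the KO (2.00-fold lower, interval 1.75 to 2.29), between the 11.3 of E14.5 and the 124 of P5, and Esr1, the estrogen receptor, 31.1 and 18.6 (1.67-fold lower, 1.41 to 1.98). Nfia and Nfib were within 2-fold, at log2 ratios of -0.08 and -0.13. Maf had no member and 1 kept peak, and its RNA was 83.6 CPM in WT and 49.8 in the KO. Of 10 developmental genes of the study, 3 had a member and 2 a kept peak, and 3 were higher and 1 lower in the KO. Among the higher was Mymx, a fusion peptide of myoblasts (5.997 CPM in WT and 14.7 in the KO). Of the clock genes, 4 of 19 had a member (Arntl, Nr1d2, Per2 and Rora), all within 2-fold, and 9 a kept peak, with 2 of 18 measured higher in the KO and 1 lower. Of 17 activity-induced genes 4 had a member (Egr2, Fosl2, Maff and Nr4a2) and 3 a kept peak, and 5 of the 17 were higher and 1 lower in the KO.

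**Figure D4:**
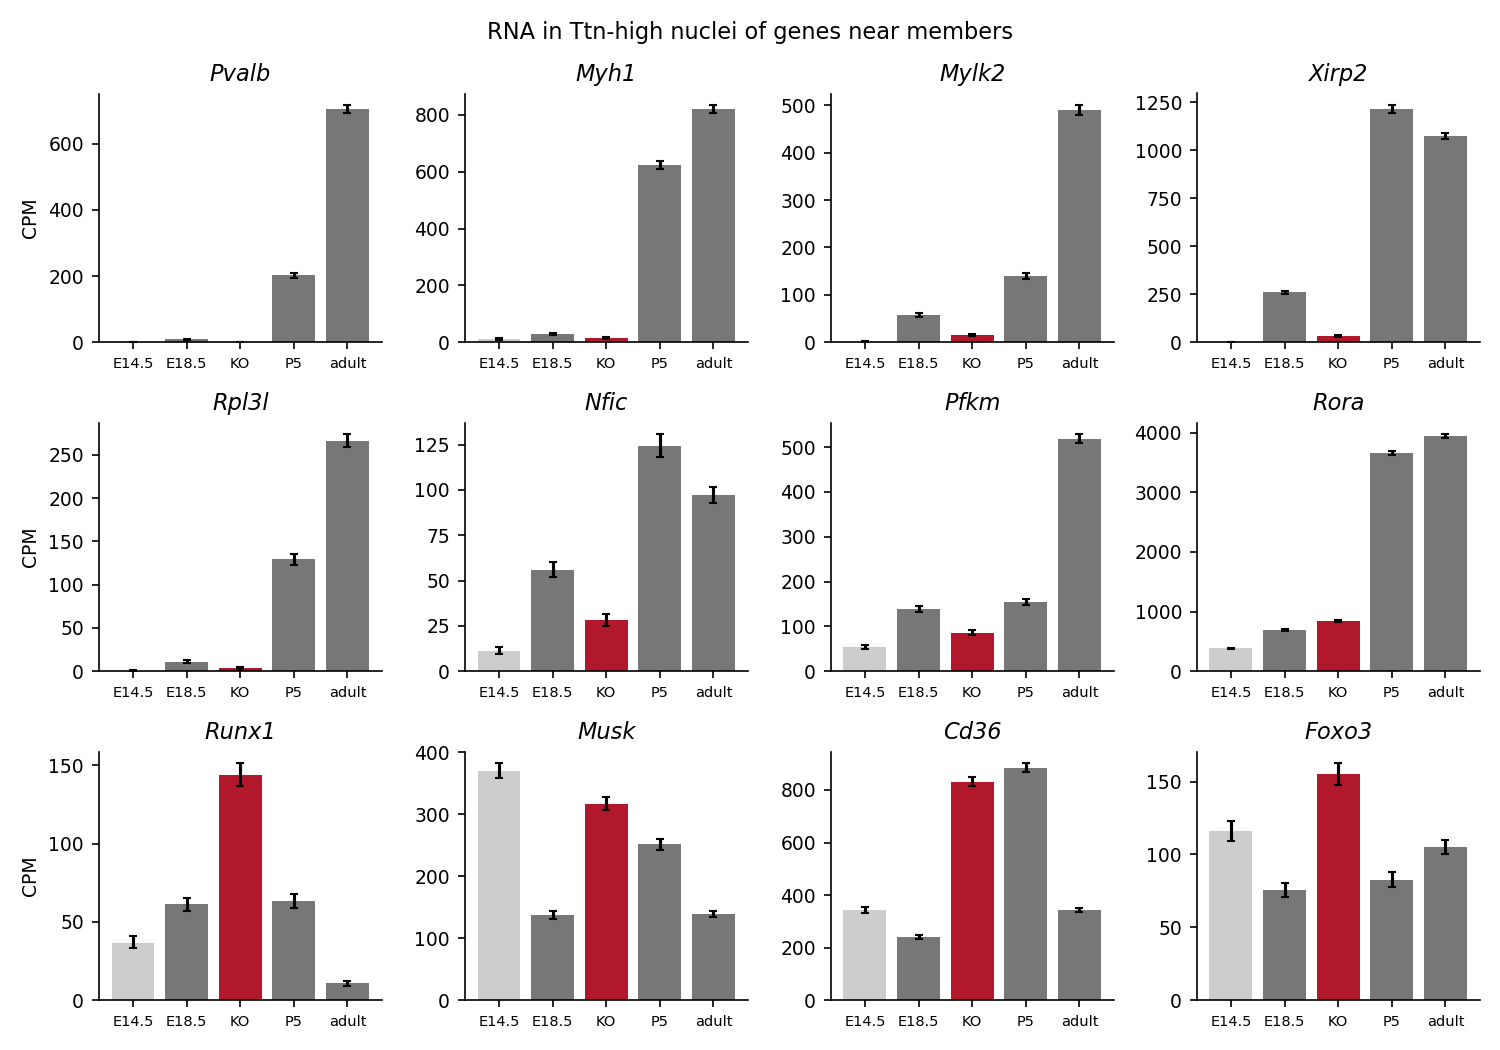
RNA in Ttn-high nuclei (CPM, bars from 0, error bars 95% Poisson intervals that cover counting error only) of 12 genes near members, in KO E18.5 (red) and in the 4 WT libraries (gray). In the KO, Mylk2 (14.1) and Xirp2 (32.4) lie below their WT E18.5 bars (56.3 and 259), and Musk (316) and Cd36 (831) above theirs (138 and 240).

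Where peaks were called in both E18.5 libraries, their levels could be compared. Of 52826 measured shared peaks, 4.61% were at least 2-fold lower in KO than in WT Ttn-high nuclei at equal totals and 4.15% at least 2-fold higher, and the median log2 ratio was 0.08. Kept maturation peaks were lower in 404 of 5459 cases (7.40%) and higher in 4.14%, with a median of 0.04. Those of them that were at least 2-fold higher in Ttn-high nuclei of WT were lower in the KO in 43 of 1585 cases (2.71%) and higher in 4.61%, with a median of 0.18. Their background is the 11234 measured shared peaks at least 2-fold higher in Ttn-high nuclei. Of that background 1.49% were lower in the KO and 6.43% higher, with a median of 0.32. Other shared peaks whose nearest gene also had a missing peak were lower in 4.88% of 13734 cases and higher in 5.29%, with a median of 0.11. At genes with at least 4 missing peaks, 6.70% of 746 were lower and 6.17% higher. This comparison holds only for peaks strong enough to be called in the KO.

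The promoters inside missing peaks were compared with those inside kept peaks, those inside any E18.5 peak and all promoters. Median GC content was 52.3% in the 158 windows, 53.3% in 264 windows of kept peaks and 61.7% in 14830 windows of all E18.5 peaks, with 52.7% over all 32851 promoters. The E-box CANNTG, searched on both strands like every motif here, was in 79.7% of members' promoters, 80.3% of kept, 63.6% of all E18.5 and 72.3% of all promoters. Its form CAGCTG was in 27.8%, 26.9%, 16.9% and 16.3%, and the GC box GGGCGG in 25.3%, 30.3%, 64.4% and 35.7%. The AP-1 motif TGANTCA was in 22.2%, 15.5%, 4.81% and 7.81%. The strict MEF2 motif was in 9 windows (5.70%), against 1.52%, 0.573% and 0.557%, but 4 of the 9 are neighboring starts of Mir670hg and 2 are starts of Gm34455, and the rest belong to Xirp2, Klhl33 and Gm30476. The wider MEF2 motif, added after the data were seen, was in 16 windows (10.1%), against 4.92%, 1.74% and 3.19%. The MAF motif TGCTGA was in 22.2%, 23.9%, 15.3% and 19.5%. The TEAD motif CATTCC was in 14.6%, 17.0%, 12.1% and 14.7% in the same order, and the nuclear receptor motif AGGTCA in 20.3%, 21.6%, 11.3% and 16.3%. The RUNX motif TGTGGT was in 15.8%, 11.7%, 12.03% and 16.8%, the motif CCACCC in 34.8%, 42.0%, 37.8% and 31.5%, and the GATA motif AGATAA in 5.06%, 10.2%, 5.19% and 11.2%. The motif TCAAGGTCA was in 1 window of members (0.423% of all promoters) and the SRF motif in 2 (1.63% of all). TCAGGTTTC (0.429% of all promoters), NFI (0.0365%) and CTCF (0.0791%) were in none. The windows of one gene overlap, and promoters are a small share of the members, so these shares do not describe the distal members.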

How the data were processed

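The deposited values are raw counts for each nucleus, of UMIs over genes and of ATAC fragments or cut sites over peaks. The authors produced them on mm10 using Cell Ranger ARC 2.0.0, per the submitters' processing notes. Peak calling had been done library by library, and nothing was normalized. The limits of the study's methods text were applied: RNA between 400 and 25000 UMIs, a mitochondrial share below 10% and fewer than 70000 ATAC counts a nucleus. A legend also names a minimum of 400 ATAC counts, which was run as an alternative. This kept 4812, 4261, 3747 and 5106 nuclei of the WT stages in order of age and 3228 of the KO, numbers that differ from those the study states. In the KO file there are only 3621 barcodes, which is below the filtered total of KO nuclei in the study, for a reason not given in the sources used here. The limits removed 17.8% of the ATAC counts of WT E18.5 and 41.4% of those of the KO. Ttn-high nuclei held 10156121 to 19758491 UMIs and 5746384 to 38615909 ATAC counts a library. Counts were summed over nuclei. Peaks were tested for overlap of 1 base, and those with at least 20 counts and genes with at least 20 UMIs in 1 of the compared sums were measured. With 1 library a group there was no test: a 2-fold ratio was the rule of size, and 95% Poisson and exact conditional intervals cover counting error only. Ratios of 0 counts were bounded with 3 counts.

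Start-site intervals came from the feature lists, gene bodies and transcript starts from GENCODE vM21 (32158 of 32285 genes matched) and promoter sequences from RefSeq (GRCm38.p6). Without a genome sequence, motifs were searched in promoters only and not in windows at the peak centers. The members and gene lists were chosen with earlier results of these data known. Named were the 15 members of highest level in Ttn-high nuclei that were at least 2-fold higher there, the 10 nearest genes with the lowest and highest KO over WT ratio at 50 or more UMIs, the 12 genes with the most members, and list genes with a member. Genes with a start site at a member were named after their values were seen. Counting strand is not given in the sources used here, so reads of antisense genes may be mixed. The work was done in Python 3.11.15 with matplotlib 3.10.9, pandas 2.3.3, scipy 1.17.1 and numpy 2.4.6, and the scripts were tested on simulated data. Alternatives were other limits on nuclei, Ttn shares, overlaps, count minimums and scalings.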

Additional observations from a re-analysis of the deposited data

How the results depend on the processing

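Over the 20 results recomputed, 55 alternative values stayed near the reported value (counts within 1.5 times) and 30 did not. The median log2 KO over WT ratio of nearest genes, -0.02, was 0.01 with Ttn at 0.5%, 0.04 with all barcodes and 0.02 from 1 UMI, and with TMM factors the P5 and adult medians of -0.13 and -0.76 were 0.21 and 0.09. Requiring a member to hold at least the median count of all E18.5 peaks left 1804 members. With genes measured from 1 UMI, 325 nearest genes were at least 2-fold lower in the KO and 397 higher, against 121 and 77 from 100 UMIs, 55 and 35 with members higher in Ttn-high nuclei, and 89 and 61 with members at or above the median count. For genes with a start site at a member, 34 of 271 (12.5%) were lower and 15 (5.54%) higher in the main setting. With all deposited barcodes 30 of 295 (10.2%) were lower and 25 (8.47%) higher. From 100 UMIs 24 of 201 (11.9%) were lower and 8 (3.98%) higher. With RNA at least as high in Ttn-high nuclei, 17 lower (14.53%) and 4 higher (3.42%) were left of 117. Fewer genes enter these smaller sets. Under the same RNA condition, genes at kept peaks were lower in 22 of 191 cases (11.5%) and higher in 15 (7.85%). Genes with a start near any E18.5 peak were lower in 7.53% of 4196 cases and higher in 5.03%. With TMM factors 223 nearest genes were lower at P5 and 723 higher in adult, and from 1 UMI 506 were higher at P5. In the central 200 bases, CAGCTG was in 24 promoters, the strict MEF2 motif in 4 and the wider MEF2 motif in 6.33% of 158. Over the full 300 bases the wider motif was in 16. The planned search at peak centers was not run. No paired analysis was possible because each group is 1 library with no replicate number. No KO level exists for a missing peak, and the lower ATAC depth of the KO and its genotype cannot be told apart.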
